A study of Mus musculus with 5 samples.

Results

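The Myc family and its Max network comprised 10 genes here: Myc, Mycn, Mycl, Max, Mxd1, Mxi1, Mxd3, Mxd4, Mnt, and Mga. They were taken by symbol from the deposited expression tables, and all 10 were found among 24421 listed genes. Their expression was compared in 5 mouse RNA-seq libraries. Mouse embryonic fibroblasts (MEFs), iPSCs, and untreated V6.5 cells formed the first table. V6.5 is a mouse embryonic stem cell line and is called mESC below. V6.5 cells given a non-targeting control shRNA (NTC) or an shRNA against Gldc (shGldc) formed the second table, which was made separately. Gldc encodes glycine decarboxylase, the rate-limiting enzyme of the glycine cleavage system, and the study compared somatic with pluripotent cells and Gldc-depleted with control stem cells.

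The MEFs came from mid-gestation CF-1 embryos. The labels give the stem cells as grown without feeders, with serum replacement and leukaemia inhibitory factor, and the study's methods describe growth on feeder cells in serum as well. How the sequenced iPSC line was made is not given by the labels. The study's methods name the American Type Culture Collection as a source of iPS lines, and separately describe retroviral vectors for Oct4, Sox2, Klf4, and Myc for reprogramming. Reads from such a vector, if the line carries one, and from the endogenous Myc gene cannot be told apart in a gene-level value. The shGldc column of the table is named sh3, while the study's list of mouse Gldc shRNAs holds sh1 and sh2, so the sequence behind it is not known here. Whether the shRNA cells were a clone or a pool was not given in the sources used here. Every condition was a single library, so all differences below compare libraries, without replicate error and without a test, and the intervals printed cover counting error only.

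Myc, Mycn, and Mycl are transcription factors that bind DNA as heterodimers with Max, at E-box motifs, and activate genes for ribosome production, nucleotide synthesis, and cell cycle entry. The Mxd proteins (Mxd1, Mxi1, Mxd3, and Mxd4) and Mnt compete with them for Max and recruit the Sin3 corepressor with its histone deacetylases, so that the balance of partners sets whether a shared site is activated or repressed. Mga also pairs with Max and belongs to the variant Polycomb complex PRC1.6, which silences germline genes in mouse embryonic stem cells, where Myc and Mycn are partly redundant for self-renewal.

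Short promoter stretches are printed because they hold the letters that the proteins of this network, or the E2F proteins, bind. Sequences come from RefSeq promoter windows of build GRCm38.p6, each from 250 bases before to 50 bases after a transcription start, and windows were at hand for 9 of the 10 members. The capitals mark the motif, distances run from the start site to the first capital letter, and each sequence is written 5′ to 3′ along its gene's strand. The E-box CACGTG, which reads alike on both strands, was found in the windows of Max, Mnt, and Mxd4, and in 7.15% of all 32851 windows.
Mxd4 (-219, chr5:34187914-34187939, minus strand): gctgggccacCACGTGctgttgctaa
Mnt (-123, chr11:74830791-74830816, plus strand): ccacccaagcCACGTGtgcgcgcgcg
Max (-3, chr12:76962236-76962261, minus strand): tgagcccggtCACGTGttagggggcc

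The related CACGCG, searched also as CGCGTG, was found in the windows of Mga and Mycl and in 9.27% of all windows. The Mycn window held the E2F-type motifs TTTGGCGC and TTTCGCGC (reverse complements GCGCCAAA and GCGCGAAA), with the first and the reversed second overlapping. They occur in 0.514% and 0.323% of all windows. Each match is a description of the letters in the window and not evidence of binding.
Mga (-21, chr2:119897197-119897222, plus strand): ctggtaggagCGCGTGcgcagtgacg
Mycl (-20, chr4:122995901-122995926, plus strand): aagccccgggCACGCGacgagatata
Mycn (-183, chr12:12941994-12942022, minus strand): gctTTTGGCGCGAAAggcTTTGGCGCctc

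The libraries carried the markers of their labels. The 9 fibroblast markers, summed, reached an FPKM (fragments per kilobase of transcript, scaled to sequencing depth) of 7193 in MEFs and between 4.57 and 54.6 in the other libraries, and the 9 pluripotency markers reached 3.18 in MEFs and between 3711 and 6748 elsewhere. Macrophage markers summed to 177.2 in MEFs, with 5 of 6 at an FPKM of at least 1, against 10.7 to 20.7 elsewhere, and their part in the MEF values below was not tested. The untreated mESC library held 8 of 9 fibroblast markers at an FPKM of at least 1, and the markers stood between 0.559% (Col1a1) and 4.25% (Dcn) of their MEF levels. Gldc was at an FPKM of 74.7 in NTC and 2.07 in shGldc cells, so 2.77% of its transcript was left. Depth, estimated from the spacing of low values, was between 22100000 and 24600000 fragments in the first table. In the second it was 28900000 to 29100000 or, with a doubled step, 14400000 to 14500000. In bulk RNA, fewer cells of a type and less RNA per cell cannot be told apart.

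In MEFs the Myc transcript made up nearly all of the Myc-family signal, whereas in all pluripotent libraries Mycn was the most abundant of the 3 paralogs. Myc (chr15:61985391-61990374, plus strand, mm10) was at an FPKM of 31.3 in MEFs, 4.61 in iPSCs, 2.11 in mESCs, 19.1 in NTC cells, and 8.30 in shGldc cells. MEFs were therefore highest, both shRNA libraries came next, and the untreated mESCs were lowest, across tables made separately. Myc was 14.8-fold lower in mESCs than in MEFs (counting interval 12.4 to 18.0) and 6.79-fold lower in iPSCs (5.93 to 7.80). Both comparisons share the MEF library. Between the pluripotent lines of the first table, it was 2.18-fold higher in iPSCs than in mESCs (1.75 to 2.75). With MEF transcripts subtracted from the mESC library at the Dcn share, the log2 ratio of Myc went from -3.83 to -5.15 in mESCs over MEFs and from 1.09 to 2.41 in iPSCs over mESCs.

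Mycn (chr12:12936093-12941914, minus strand), the paralog best known from neural and embryonic tissue, ran the other way. Its FPKM was 0.709 in MEFs, 24.3 in iPSCs, 35.3 in mESCs, 48.5 in NTC cells, and 29.0 in shGldc cells. The MEF value rests on about 46.6 fragments, the fewest behind any value of the 10 genes. Mycn was 49.8-fold higher in mESCs than in MEFs (37.0 to 67.4) and 34.3-fold higher in iPSCs (25.4 to 46.5). No other member spanned so wide a range, which was 68.4-fold between NTC cells and MEFs.

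Mycl (chr4:122995652-123002485, plus strand), the third paralog, had an FPKM of 1.77 in MEFs, 6.35 in iPSCs, 5.95 in mESCs, 18.2 in NTC cells, and 15.2 in shGldc cells. MEFs were lowest again, and the 2 shRNA libraries stood above both untreated stem cell libraries. The iPSC and mESC levels differed 1.07-fold, with a counting interval of 0.941 to 1.21 that includes equality. Set against MEFs, the mESC level of Mycl was 3.37-fold higher and the iPSC level 3.59-fold higher.

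Max (chr12:76937269-76962201, minus strand), the shared partner without which the Myc and Mxd proteins bind DNA poorly, varied least of the 10 genes. It was at an FPKM of 33.0 in MEFs, 31.9 in iPSCs, 26.4 in mESCs, 32.4 in NTC cells, and 33.0 in shGldc cells, a range of 1.25-fold. Gm47218 overlaps it on the same strand. The counting intervals of iPSCs over MEFs (0.898 to 1.04) and of shGldc over NTC cells (0.929 to 1.12) included 1. Against this near-level Max, the summed FPKM of the Myc genes was 1.02 times that of Max in MEFs, 1.10 times in iPSCs, 1.64 times in mESCs, 2.65 times in NTC cells, and 1.59 times in shGldc cells.

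**Figure D1:**
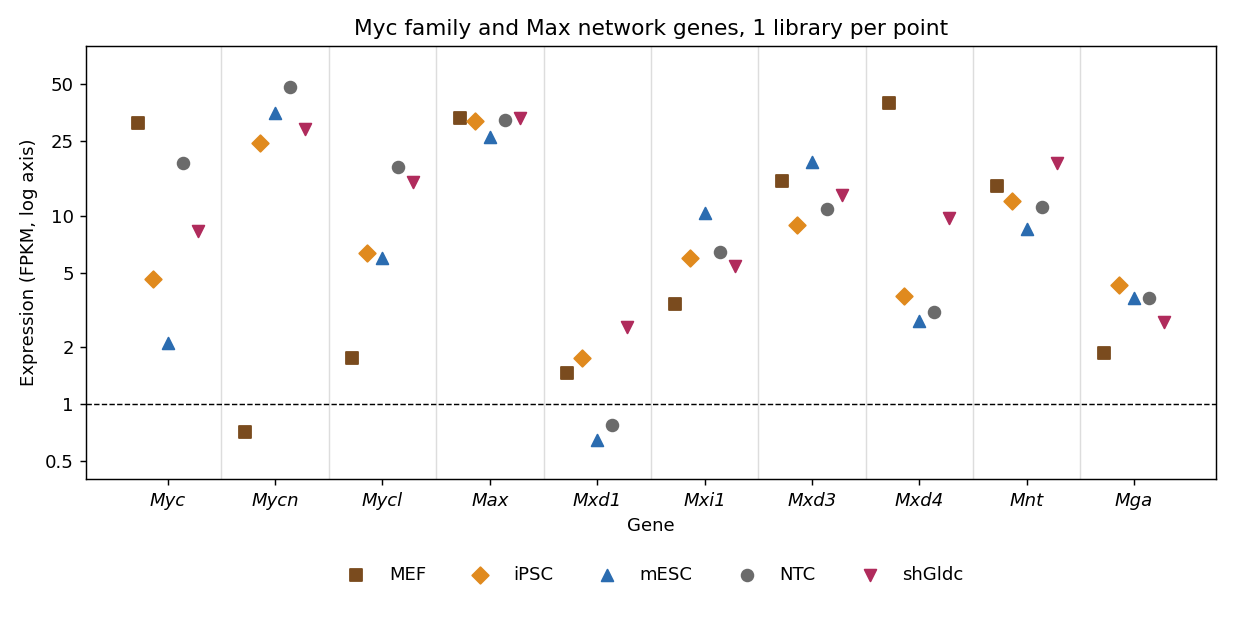
Expression of the 10 genes in each library, as FPKM on a log axis, with 1 point per library and a dashed line at an FPKM of 1. Myc and Mxd4 are highest in MEFs, Mycn and Mycl are lowest there, and the Max points lie between 26.4 and 33.0.

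Among the Mxd genes, which antagonise Myc, Mxd4 carried the main difference between fibroblasts and stem cells. Mxd4 (chr5:34173883-34187720, minus strand) had an FPKM of 40.0 in MEFs, 3.76 in iPSCs, 2.75 in mESCs, 3.07 in NTC cells, and 9.71 in shGldc cells. It was thus the most abundant of the 10 genes in MEFs, low in the other unperturbed libraries and NTC cells, and intermediate in shGldc cells. It was 14.5-fold lower in mESCs than in MEFs (12.8 to 16.5) and 10.6-fold lower in iPSCs (9.49 to 12.0). The same subtraction took the log2 ratio of Mxd4 from -3.81 to -5.12 in mESCs over MEFs and from 0.44 to 1.74 in iPSCs over mESCs. The antisense gene Gm42846 overlaps Mxd4, and the strand setting of the authors' counting was not given, so reads of the pair cannot be told apart.

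Mxd3 (chr13:55325168-55329823, minus strand), the Mxd protein associated with proliferating cells, was at an FPKM of 15.3 in MEFs, 8.91 in iPSCs, 19.3 in mESCs, 10.9 in NTC cells, and 12.8 in shGldc cells. It stayed within a 2.17-fold range and was the most abundant Mxd transcript in all 4 pluripotent libraries. Its gene overlaps Prelid1 on the other strand, and without the strand setting reads of this pair cannot be told apart either. Mxi1 (chr19:53310518-53375810, plus strand), also known as Mxd2, was at 3.40 in MEFs, 5.94 in iPSCs, 10.4 in mESCs, 6.46 in NTC cells, and 5.39 in shGldc cells. Its lowest value was in MEFs and its highest in mESCs, 3.06-fold apart (2.74 to 3.43). It overlaps AC133451.2 and Gm10197 on the other strand, with the same limit.

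Mxd1 (chr6:86647042-86669161, minus strand), known for its induction during differentiation, was the least abundant member in iPSCs, mESCs, NTC, and shGldc cells. Its FPKM was 1.47 in MEFs, 1.76 in iPSCs, 0.644 in mESCs, 0.775 in NTC cells, and 2.57 in shGldc cells. Gm44292 overlaps it on the same strand. The mESC value rests on about 73.9 fragments and the NTC value on about 52.4. iPSCs stood 2.73-fold above mESCs (2.08 to 3.64), while their difference from MEFs, 1.20-fold, had an interval that includes equality (0.967 to 1.49). The log2 ratio of iPSCs over MEFs, 0.24, became -0.04 with all libraries scaled to an equal FPKM sum and -0.07 when centred on the median of all genes.

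Mnt (chr11:74830920-74845725, plus strand), the broadly expressed Max partner and repressor, was at an FPKM of 14.5 in MEFs, 12.1 in iPSCs, 8.53 in mESCs, 11.1 in NTC cells, and 19.2 in shGldc cells. Its level was highest in shGldc cells, 2.25-fold above the lowest, in mESCs. Mga (chr2:119897228-119969581, plus strand), the large scaffold that brings Max into PRC1.6, was at 1.87 in MEFs, 4.31 in iPSCs, 3.66 in mESCs, 3.68 in NTC cells, and 2.73 in shGldc cells. Its lowest value was in MEFs, 2.31-fold below iPSCs (2.10 to 2.54).

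Summed FPKM, which is per length and so can be compared between genes, showed which gene led each side of the network in the unperturbed libraries. The 3 Myc genes summed to 33.7 in MEFs, 35.3 in iPSCs, and 43.3 in mESCs. Myc made up 92.7% of that sum in MEFs, 13.1% in iPSCs, and 4.87% in mESCs, and Mycn 2.10%, 68.9%, and 81.4%. The Mxd genes summed to 60.2, 20.4, and 33.1, and Mxd4 made up 66.5%, 18.5%, and 8.31% of this, with Mxd3 at 25.4%, 43.7%, and 58.3%. The Myc sum over the sum of Mxd genes, Mnt, and Mga was 0.441 in MEFs, 0.960 in iPSCs, and 0.957 in mESCs.

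In the second table, the same ratio was 2.38 in NTC cells and 1.00 in shGldc cells. The Myc sum was 85.8 in NTC and 52.5 in shGldc cells, of which Mycn made up 56.5% and 55.2%. The opposing sum was 36.1 and 52.4, and the share of Mxd4 among the Mxd genes was 14.5% and 31.8%. The sums of the 2 sides thus lay apart in NTC cells and nearly level in shGldc cells. They were also nearly level in the untreated stem cells of the other table, at 0.957 in mESCs and 0.960 in iPSCs. Among the stem cell libraries, NTC was thus the one that stood apart, with a Myc sum of 85.8 beside 43.3 in mESCs.

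**Figure D2:**
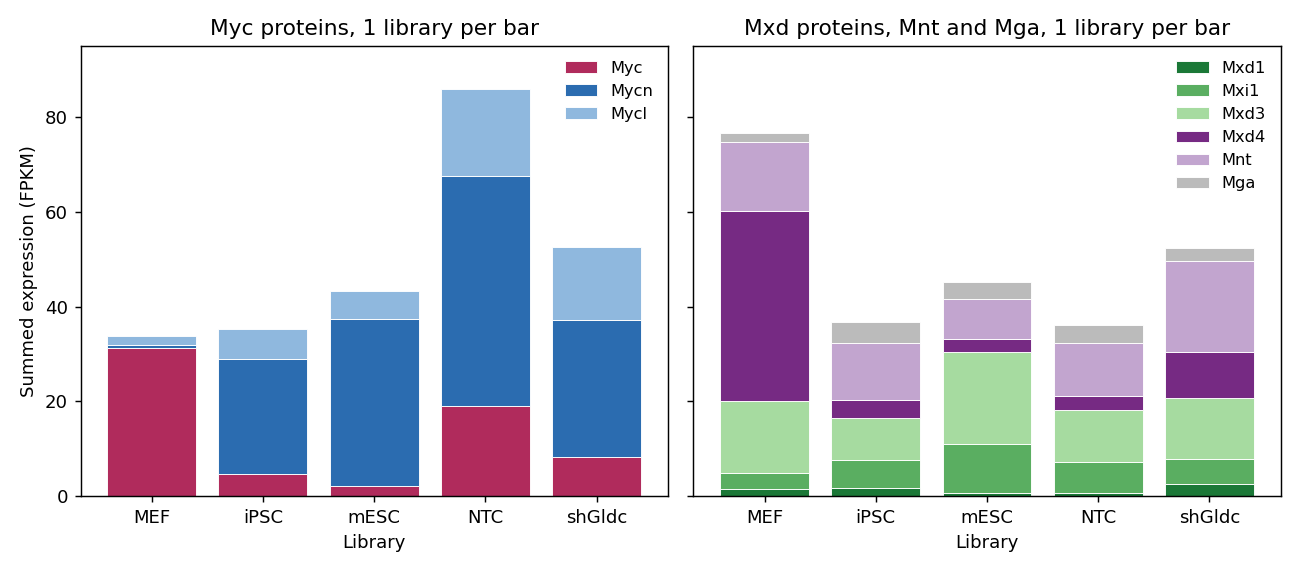
Summed FPKM of the Myc genes (left) and of the Mxd genes, Mnt, and Mga (right) in each library, with each gene as a segment of the bar. Myc fills 92.7% of the left bar in MEFs and 4.87% in mESCs, and Mxd4 is the largest segment of the right bar in MEFs.

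To compare the genes on one scale, log2 ratios of FPKM with 0.1 added were taken, which understates the change of low genes. A gene was kept when its FPKM was at least 1 in at least 1 library of the comparison, and a difference of at least 2-fold on this scale was counted. In mESCs over MEFs, all 10 members were kept, of which 3 were at least 2-fold higher (Mycn, Mycl, and Mxi1), a size met by 30.3% of the 12840 genes compared. Another 3 were at least 2-fold lower (Myc, Mxd4, and Mxd1), against 23.3% of all genes. Mycn was kept only through mESCs and Mxd1 only through MEFs, so both had to differ. The median log2 ratio was 0.01 for the members and 0.25 for all genes. The count of lower members was 4 with centring, which took Mnt just past 2-fold, and 2 with a minimum FPKM of 5 or with a pseudocount of 1, which put Mxd1 at -0.59. The ratio of Mycn, 5.45, exceeded that of 97.5% of the genes compared, while 4.33% of them lay below Myc at -3.83 and 4.36% below Mxd4 at -3.81.

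In iPSCs over MEFs, 3 members were at least 2-fold higher (Mycn at 4.91, Mycl at 1.79, and Mga at 1.16), against 31.5% of 13032 genes. Mycn was again kept only through the stem cells. The 2 members at least 2-fold lower were Myc at -2.74 and Mxd4 at -3.38, against 21.3% of all genes. The median was 0.10 for the members and 0.31 for all genes, and scaling to an equal FPKM sum shifted the ratios by about -0.30 here and -0.24 in mESCs over MEFs. With that scaling, or with centring, the iPSC counts became 2 higher and 3 lower, as Mga left the first group and Mxd3 joined the second.

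Between the pluripotent lines of the first table, iPSCs over mESCs, 2 members were at least 2-fold higher, Mxd1 at 1.32 and Myc at 1.09, against 10.1% of 12323 genes. Mxd1 was kept only through iPSCs. Mxd3 was the 1 member at least 2-fold lower, at -1.11, against 7.44% of all genes. The median was 0.25 for the members and 0.04 for all genes. Markers of other cell types also differed between these libraries. The 5 endoderm markers summed to 18.6 in iPSCs and 5.02 in mESCs (3 and 1 at an FPKM of at least 1), the 5 mesoderm markers to 19.4 and 9.45 (2 in each), and the 4 neural markers to 3.39 and 15.0 (2 and 3), and none of these was listed at 0. Their part in the ratios was not tested. With a pseudocount of 1, or a minimum FPKM of 5, no member was at least 2-fold higher.

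**Figure D3:**
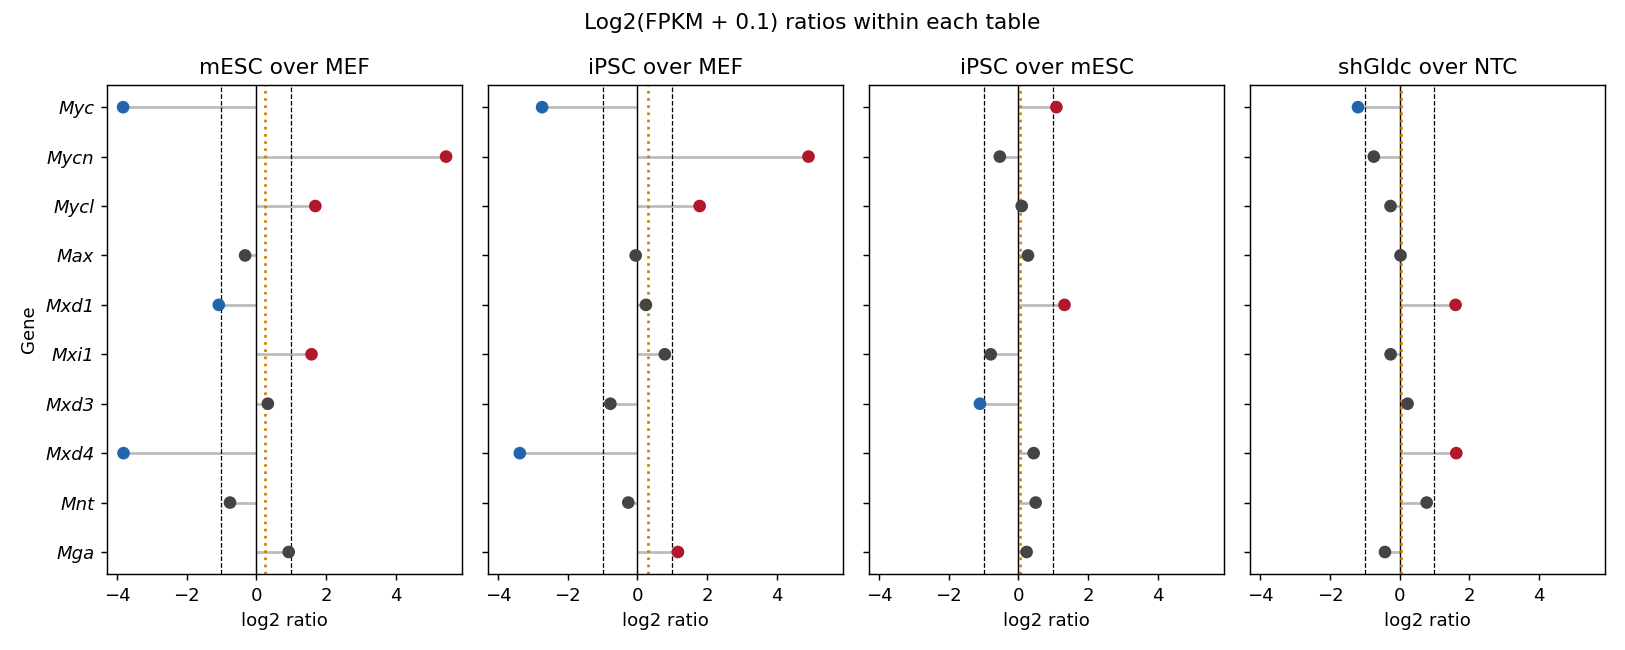
Log2 ratio of each member in the 4 comparisons made within a table, with dashed lines at 2-fold, a dotted line at the median of all genes compared, and coloured points for genes past 2-fold. Myc and Mxd4 lie far to the left and Mycn far to the right against MEFs, and Mxd1 and Mxd4 lie to the right and Myc to the left in shGldc over NTC cells.

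Depletion of Gldc was read by comparing shGldc with NTC cells. All 3 Myc genes were lower with shGldc, and Mxd1, Mxd4, and Mnt were higher. The 2 members at least 2-fold higher were Mxd4, at a log2 ratio of 1.63, and Mxd1, at 1.61, against 8.97% of 11969 genes. Mxd1 was kept only through shGldc cells, did not pass a minimum FPKM of 5, which left 1 higher member, and stood at 1.01 with a pseudocount of 1. Mxd4 was 3.16-fold higher (2.66 to 3.78) and Mxd1 3.31-fold higher (2.43 to 4.63), and 95.8% and 95.7% of the genes compared had lower ratios. The 1 member at least 2-fold lower was Myc, at -1.19, against 7.68% of all genes.

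Mnt was 1.72-fold higher in shGldc cells (1.57 to 1.89), at a log2 ratio of 0.78. Mycn was 1.67-fold lower, at -0.74, and 11.4% of the genes compared lay below it. The remaining members differed by less. The log2 ratios were -0.26 for Mycl, -0.26 for Mxi1, -0.42 for Mga, 0.23 for Mxd3, and 0.03 for Max, and those of Mxd3 and Max had counting intervals that include equality. The Max ratio was -0.01 after rescaling or centring. Over the 10 members the median was -0.12, against 0.04 for all genes. Of the 10, 5 lay above 0, near the 52.8% of all genes. The 5 endoderm markers summed to 3.17 in NTC and 18.0 in shGldc cells, with 1 and 2 at an FPKM of at least 1 and none listed at 0. Of the 9 pluripotency markers, all at an FPKM of at least 1, 8 were lower in shGldc cells, such as Sox2 at 223.0 and 130.4 and Utf1 at 572.0 and 312.5. Only Dppa5a was higher, at 1440 and 1792, and the 9 summed to 4154 and 3711. The mesoderm markers summed to 14.5 and 17.4 (Mesp1 listed at 0 in shGldc cells), and the neural markers to 5.70 and 5.45 (Neurog2 listed at 0 in NTC cells). Their part in the members' ratios was not tested.

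NTC cells themselves stood apart from untreated V6.5 cells for some members, in tables made separately, so a difference between tables is included in these ratios and cannot be told apart from an effect of the control shRNA or of the culture. In NTC over mESC, 2 of the 9 members kept were at least 2-fold higher, against 4.99% of 12048 genes. They were Myc, 9.06-fold higher (7.48 to 11.1), and Mycl, 3.06-fold higher (2.75 to 3.42). With the Dcn share of MEF transcripts subtracted from mESCs, the log2 ratio of Myc went from 3.12 to 4.45, and 3 members were at least 2-fold higher, with Mxd4 at 1.46. The ratio of Myc as deposited exceeded that of 99.5% of the genes compared. No member was at least 2-fold lower, against 10.3% of all genes, and Mxd1 was below an FPKM of 1 in both libraries. In the same comparison all 5 endoderm markers were lower (summed 5.02 in mESCs and 3.17 in NTC cells), as were all 4 neural markers (15.0 and 5.70), while 4 of 5 mesoderm markers were higher (9.45 and 14.5). The 9 fibroblast markers summed to 54.6 and 11.4, and the part of any of these in the members' ratios was not tested.

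The shGldc library was therefore also set beside untreated mESCs. Myc remained 3.93-fold above mESCs there (3.18 to 4.93), so it was lower than in NTC cells and higher than in untreated cells. Mxd4 was 3.53-fold above mESCs (3.04 to 4.10), and Mnt 2.25-fold (2.07 to 2.45), the same direction as against NTC cells. Mxd1 was 3.98-fold above (3.01 to 5.29), but was kept only through shGldc cells and had to be higher. The same subtraction took the log2 ratio of Myc from 1.93 to 3.25 and that of Mxd4 from 1.78 to 3.09. Counting Mycl and Mxd1, 5 members were at least 2-fold higher, against 9.89% of 12237 genes, and none was at least 2-fold lower, against 13.9%. These ratios share the shGldc library with those over NTC cells. In shGldc over mESC, all 5 endoderm markers were higher (summed 5.02 in mESCs and 18.0 in shGldc cells). Of these, 1 and 2 were at an FPKM of at least 1. All 9 fibroblast markers (54.6 and 4.57) and 7 of 9 pluripotency markers (6748 and 3711) were lower. Among mesoderm markers 3 of 5 were higher (9.45 and 17.4), and among neural markers 3 of 4 were lower (15.0 and 5.45). Their part in the members' ratios was not tested.

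The gene lists that follow are read against all genes compared, of which 30.3% were at least 2-fold higher and 23.3% lower in mESCs over MEFs (median 0.25) and 31.5% and 21.3% in iPSCs over MEFs (median 0.31). In shGldc over NTC cells these shares were 8.97% and 7.68%, with a median of 0.04. No list was tested.

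The Mlx branch is the sister network in which Mlx pairs with Mlxip and Mlxipl to sense glucose, with Txnip and Arrdc4 as targets. Of its 5 genes, 3 were at least 2-fold higher in mESCs than in MEFs and 3 in iPSCs than in MEFs, against 30.3% and 31.5% of all genes, with medians of 1.51 and 2.24. One of the 3 in both was Mlxipl, at 0.0445 in MEFs, which was kept only through the stem cells and had to be higher. Txnip was at an FPKM of 68.6 in MEFs, 623.8 in iPSCs, 301.7 in mESCs, 68.6 in NTC cells, and 56.9 in shGldc cells. The 2 untreated stem cell libraries were high, and the shRNA libraries of the other table were at the MEF level. Between shGldc and NTC cells, none of the 5 passed 2-fold, from -0.65 for Mlxip to 0.30 for Mlxipl.

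Of the 12 Sin3 corepressor genes, 4 were at least 2-fold higher and none lower in mESCs over MEFs (median 0.39), and likewise in iPSCs over MEFs (median 0.72). The higher counts lie near the shares of all genes, 30.3% and 31.5%, while 23.3% and 21.3% of all genes were at least 2-fold lower. The highest was Sap30, a Sin3 complex subunit, at 10.9 in MEFs, 78.0 in iPSCs, and 84.3 in mESCs. Hdac1, the deacetylase, was at 68.4, 226.0, and 220.6 in the same libraries. In shGldc over NTC cells, none passed 2-fold, the median was 0.08, and the ratios ran from -0.70 for Sin3a, the scaffold, to 0.70 for Arid4a.

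Among 19 genes for cofactors and turnover of Myc proteins, 10 were at least 2-fold higher and 1 lower in mESCs over MEFs (median 1.02), and 9 and 1 in iPSCs over MEFs (median 0.95), beside 30.3% and 31.5% of all genes higher and 23.3% and 21.3% lower. Usp28, a deubiquitinase that stabilises Myc, was at 3.26 in MEFs, 13.1 in iPSCs, and 24.9 in mESCs, and Wdr5, which helps to place Myc on chromatin, at 24.0, 97.0, and 88.9. The exception was Gsk3b, the kinase that marks Myc for degradation, at 11.5, 4.85, and 3.62. No gene of this list passed 2-fold in shGldc over NTC cells. Of the 19, 13 lay below 0, against 47.2% of all genes, with a median of -0.23. The lowest was Ruvbl2, a helicase that Myc binds, at 367.4 in NTC and 188.1 in shGldc cells, and the highest was Gsk3b, at 4.15 and 7.25.

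Of the 10 PRC1.6 partners of Mga, 4 were at least 2-fold higher and 1 lower in mESCs over MEFs (median 0.80), and 5 and 1 in iPSCs over MEFs (median 0.66), beside 30.3% and 31.5% of all genes higher. L3mbtl2, a core subunit, was at 6.05 in MEFs, 49.9 in iPSCs, 45.3 in mESCs, 85.2 in NTC cells, and 71.9 in shGldc cells. Yaf2 was the lower one, at 14.4 in MEFs, 5.71 in iPSCs, and 5.12 in mESCs. In shGldc over NTC cells, none passed 2-fold, and 7 of 10 lay below 0, against 47.2% of all genes. The list's median was -0.23, and the ratios ran from -0.80 for Tfdp1 to 0.65 for E2f6.

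The 14 germline genes known to be bound by Mga complexes were low in MEFs and unequal between the stem cell libraries. Except for Tdrkh, at 1.19, every one kept was at an FPKM of 0.327 or less in MEFs and was kept only through the stem cells, so no count over MEFs is given. In iPSCs over mESCs, 9 of 13 were at least 2-fold higher and none lower, against 10.1% and 7.44% of all genes, with a median of 1.56. Hormad1, one of the 9, and Tdrd1 were kept only through iPSCs. Stra8, the gatekeeper of meiotic entry, was at an FPKM of 0.0406 in MEFs, 155.5 in iPSCs, 52.5 in mESCs, 22.6 in NTC cells, and 224.1 in shGldc cells. Its highest value was thus in the Gldc-depleted library.

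In shGldc over NTC cells, 10 of these genes were kept, of which 3 were at least 2-fold higher and 1 lower, with a median of -0.06 against 0.04 for all genes. Taf7l was kept only through shGldc cells and Stag3 only through NTC cells, so both had to differ. Besides Stra8, Taf7l, a testis transcription factor subunit, was at 0.299 in NTC and 5.44 in shGldc cells, and Dazl, a germ cell RNA-binding protein, at 3.66 and 15.5. Stag3, a meiotic cohesin subunit, went the other way, at 4.60 and 0.846. Mga itself was 1.35-fold lower in the same comparison (1.21 to 1.51). A relation of these values to Mga was not tested.

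Genes that Myc proteins are known to activate were higher in mESCs than in MEFs for 28 of 32 genes, against 56.4% of all genes. In iPSCs it was 27 of 32, against 58.4% of all genes. In mESCs over MEFs, 19 were at least 2-fold higher and 1 lower, against 30.3% and 23.3% of all genes, with a median of 1.23. In iPSCs over MEFs, 11 were higher, near the 31.5% of all genes, and 2 lower, with a median of 0.88. Polr1b, a subunit of RNA polymerase I, was at 7.23 in MEFs, 26.6 in iPSCs, and 38.4 in mESCs. The lowest ratio was that of Ccnd2, a D-type cyclin, at 96.5, 1.20, and 1.57. Tert, at 0.981 in MEFs, was kept only through the stem cells and counts among the higher genes in both. In iPSCs over mESCs, 26 of 32 lay below 0, against 47.4% of all genes, with a median of -0.38 against 0.04. Of the 32, 3 were at least 2-fold lower, near the 7.44% of all genes. Among these was Tfrc, the transferrin receptor, at 20.0 in iPSCs and 48.1 in mESCs.

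In shGldc over NTC cells, 31 of the 32 genes were kept, none was at least 2-fold higher, and 2 were at least 2-fold lower, near the 7.68% of all genes. Of the 31, 26 lay below 0, against 47.2% of all genes, with a median of -0.25 against 0.04. The lower ones were Slc7a5, the large neutral amino acid transporter, at 193.2 in NTC and 90.9 in shGldc cells, and Ldha, lactate dehydrogenase A, at 869.5 and 422.3. The highest ratio was 0.58, for Nme1, a nucleoside diphosphate kinase. Odc1, the first enzyme of polyamine synthesis, was at 489.7 and 300.7. In NTC over mESC, across tables, 20 of 32 lay above 0 with a median of 0.13, against 45.6% and -0.06 for all genes. In shGldc over mESC, 12 of 32 lay above 0 with a median of -0.27, against 48.8% and -0.02.

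Of 8 genes that Myc is known to repress, 5 were at least 2-fold lower and 2 higher in mESCs over MEFs (median -1.75), and 4 and 1 in iPSCs over MEFs (median -0.98), beside 23.3% and 21.3% of all genes lower and 30.3% and 31.5% higher. Gas1, at 68.6 in MEFs and 0.929 in iPSCs, was kept only through MEFs in the second comparison. In shGldc over NTC cells, 1 was higher and 1 lower, with a median of 0.15. There were 4 on each side of 0, beside 47.2% of all genes below it. Gas1, a growth arrest gene, was at 2.31 in NTC and 5.10 in shGldc cells, and Ndrg2 at 11.9 and 4.97. Cdkn1a, the cell cycle inhibitor p21, was at 72.9 and 116.0, a log2 ratio of 0.67.

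**Figure D4:**
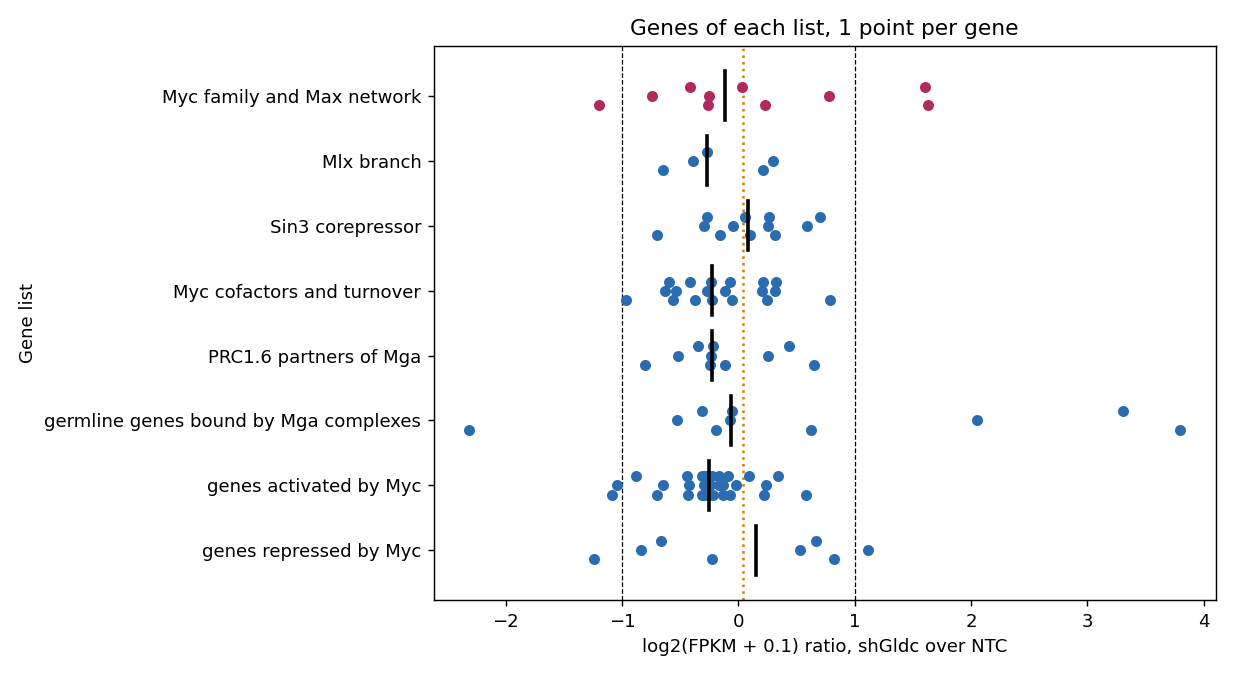
Log2 ratio of shGldc over NTC cells for every gene kept in each list, with 1 point per gene, a black bar at the list's median, dashed lines at 2-fold, and a dotted line at the median of all genes compared. The Myc-activated genes centre at -0.25, and the germline genes spread from -2.31 to 3.80.

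The profiles most like those of Myc and Mycn over the 5 libraries were found by the distance between log2 profiles after removing each gene's mean, over 13656 genes. Nearest to Myc were Tifab (distance 0.59), Ikbke (0.83), and Id3 (0.96). Id3, an inhibitor of differentiation, was at an FPKM of 178.2 in MEFs, 55.4 in iPSCs, 14.1 in mESCs, 97.7 in NTC cells, and 49.7 in shGldc cells. As for Myc, MEFs were highest, NTC cells next, and mESCs lowest. Nearest to Mycn were Camk2b (0.20), Tex14 (0.40), and Kcnk5 (0.47). Camk2b, a calmodulin-dependent kinase subunit, was at 0.170, 6.80, 11.4, 15.6, and 8.67 in the same libraries. The distances span 2 tables and describe these libraries only.

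Pvt1, the noncoding gene beside Myc, was at 2.88 in MEFs, 3.10 in iPSCs, 2.03 in mESCs, 1.43 in NTC cells, and 0.658 in shGldc cells. It did not share the high MEF level of Myc, and like Myc it was lower with shGldc than with NTC. The trace of fibroblast transcripts in the mESC library bears on Myc and Mxd4, the members with the largest excess in MEFs. At the Col1a1 share, the lowest of the 9 fibroblast markers, MEF transcripts would supply 8.28% of the mESC Myc level and 8.13% of the Mxd4 level. At the share of Dcn, the highest, which is listed at 0 in the other stem cell libraries, they would supply 63.0% and 61.8%. The mESC levels of both genes are thus known only within that range of fibroblast RNA. With either share subtracted, alternatives chosen after seeing the data, the members past 2-fold in mESCs over MEFs were 3 higher and 3 lower, and with the Dcn share Mxd4 joined the genes at least 2-fold higher in iPSCs over mESCs.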

How the data were processed

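The authors isolated total RNA with TRIzol, made libraries with a NEBNext Ultra RNA kit, and sequenced them on an Illumina HiSeq instrument. Reads were aligned to the mouse genome mm10 with TopHat2 2.1.0, assembled by StringTie 1.3.4d, and quantified with Ballgown. SAMtools 1.7 and a further build, mm9, also appear in the submitters' processing notes. The deposited values are FPKM per gene symbol, in 2 tables that the authors made separately, and each library is a sample of its own condition. The gene annotation, strand setting, and filters were not given in the sources used here.

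From the deposited FPKM, log2 ratios were computed after adding 0.1, for genes whose FPKM reached 1 in either library compared. Linear folds are ratios of the FPKM values themselves. Sequencing depth was inferred from the spacing of the products of low FPKM values and transcript lengths among 5723 single-transcript genes, and the smaller depth was used for the second table. Counting intervals (95%, exact Clopper-Pearson) used FPKM times the length of the longest coding transcript times that depth. Where shorter transcripts were expressed, the fragments are fewer than estimated and the intervals too narrow. The intervals cover counting error only. Positions and overlaps follow GENCODE M21 of mm10, and at most 0.411% of the 50-base stretches of any member occur in other genes.

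All 10 members were named. Of each gene list, those with the highest and lowest ratio and at most 2 more were named, and for Myc and Mycn the genes of most similar profile. The members, lists, and motifs were chosen with earlier results of these data known. Alternatives were other pseudocounts (1 and 0.01), rescaling to the same FPKM sum, centring on the median of all genes, no minimum or a minimum FPKM of 5, and untreated V6.5 cells as the control. Subtracting MEF transcripts from the mESC library (at the Col1a1 or the Dcn share), and the members' ratios with that control, were added after seeing the data. The ratio step was tested on simulated data. The software was Python 3.11.15 with scipy 1.17.1, matplotlib 3.10.9, pandas 2.3.3, and numpy 2.4.6.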

Additional observations from a re-analysis of the deposited data

Results flagged for a closer look

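The ratios of Mxd1 and Mxd3 over MEFs differed in sign between the 2 untreated stem cell libraries, though for Mxd1 not after rescaling or centring. The log2 ratio of Mxd1 was -1.08 in mESCs over MEFs and 0.24 in iPSCs over MEFs, and the second, with a linear fold of 1.20 and a counting interval of 0.967 to 1.49 that includes equality, turned to -0.04 with rescaling and -0.07 with centring. That of Mxd3 was 0.33 in mESCs over MEFs, or 0.09 with rescaling or centring, and -0.78 in iPSCs over MEFs. Both ratios of a gene share the MEF library, each rests on 1 library per cell type, and the difference between them was not tested.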

How the results depend on the processing

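Of 428 recomputed ratios of the members, 412 moved by less than 0.59 on the log2 scale, the robust SD of the ratio of NTC over untreated mESCs, 15 moved by more, and 1 past 2-fold reversed. The reversed one was Myc in shGldc cells, at 1.93 when the untreated V6.5 library served as control in place of NTC. With that control, 5 members were at least 2-fold higher in shGldc cells and 0 lower, Mxi1 moved to -0.94, and Mycl and Mxd3, under 2-fold over NTC, also changed sign, to 1.34 and -0.58. A minimum FPKM of 5 left 1 member at least 2-fold higher in shGldc over NTC cells, since Mxd1 is removed by construction, and 0 in iPSCs over mESCs. A pseudocount of 1 also gave 0 in iPSCs over mESCs, and moved Mycn to 4.41 in mESCs and 3.89 in iPSCs over MEFs and Mxd1 to 1.01 over NTC and 1.12 over mESC. Subtracting MEF transcripts at the Dcn share moved 8 ratios, all of Myc or Mxd4 and without a change of sign, such as Myc to 4.45 and Mxd4 to 1.46 in NTC over mESC. Counts in the other comparisons stayed within 1.5 times under the alternatives run, though the split of iPSCs over MEFs turned from 3 higher and 2 lower to 2 and 3 with rescaling or centring. With 1 library per condition, the spread between cultures is unknown, and none of these settings stands in for it. Depth limits Mxd1 in mESC and NTC cells and Mycn in MEFs, with 46.6 to 73.9 fragments each, and the depth of the second table is uncertain by a factor of 2.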
